A study of Rattus norvegicus with 12 samples.

Results

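The genes described here encode the transforming growth factor beta (TGF-beta) ligands Tgfb1, Tgfb2 and Tgfb3, their receptors Tgfbr1, Tgfbr2 and Tgfbr3, the latent TGF-beta binding proteins Ltbp1, Ltbp2 and Ltbp4, and fibrillin-1 (Fbn1). They were taken as the probe sets whose single gene symbol in the platform annotation was one of these 10 names, which gave 13 of 31042 probe sets and 9 of the 10 genes. No probe set carried Tgfbr2, the type II receptor, so it is not analysed here. Tgfb2, Tgfbr1, Tgfbr3 and Fbn1 each had a pair of probe sets, and the one with the higher mean over the 12 arrays represents the gene unless the other is named. All 13 probe sets had a mean at or above the 40th percentile of the array, a log2 value of 4.01, and were tested with 18625 probe sets in all.

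Expression was measured on 12 one-colour rat arrays, 3 for each of 4 groups: left atrial appendage after a sham operation, left atrial appendage after an aorto-caval shunt, left ventricular free wall after a sham operation, and left ventricular free wall after an aorto-caval shunt. An aorto-caval shunt is a surgical join between the aorta and the vena cava, which gives the heart a volume overload. All animals were male Sprague-Dawley rats of 225 to 275 g, the age was not given, and tissue was taken 28 days after the operation; the sham rats shared the surgery without the shunt. Each array held RNA from a pool of 2 tissues, so the spread between arrays is that between pools, and a level in whole tissue cannot separate fewer cells of a type from less RNA per cell.

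TGF-beta is secreted as an inactive complex with its own cleaved propeptide. In most tissues that complex is linked to a latent TGF-beta binding protein, which ties it to fibrillin microfibrils in the extracellular matrix until integrins or proteases free it. Free ligand joins the type II and type I receptors, whose kinases activate Smad proteins, and in heart the pathway is known for its part in fibroblast activation and matrix deposition.

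The labelled tissues carried their defining markers. Myl4, the atrial essential myosin light chain, had a mean log2 value of 13.36 in atrial sham and 5.30 in ventricular sham arrays, and Myl2, the ventricular regulatory light chain, had 4.52 and 13.63. Arrays of 1 group correlated at 0.99 to 0.997 over probe sets, and 0 pairs were identical. Atrial shunt array 3 stood apart, with a root mean square deviation of 0.2 from its group mean against 0.0913 to 0.163 on the other 11 arrays. For the hexokinase control transcript, the signal at its 3′ end exceeded that at its 5′ end by 1.44 on this array and by 0.8 to 1.23 on the others; this gap (the hexokinase difference from here on) grows when labelled RNA is shorter. Results that rest on it are given with and without it.

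In the left atrium 1 of the 9 genes rose after the shunt, and it was Ltbp2. Ltbp2 differs from the other members of its family in that it does not bind latent TGF-beta, and it associates with fibrillin-1 microfibrils. In the left ventricle 0 of the 9 passed the test. Between the chambers of sham rats 5 of the 9 differed: Tgfb2, Tgfb3, Ltbp1 and Ltbp4 were higher in the atrium and Tgfb1 was higher in the ventricle. These calls are limma p-values adjusted with the Benjamini-Hochberg method over all probe sets tested, at a threshold of 0.05. Read against the whole array, 1.3% of the probe sets tested passed in the atrial shunt comparison, 0.107% in the ventricular one and 47.2% between the chambers of sham rats, so the 5 of 9 chamber calls are close to the share of the array. By direction, 0.478% of all probe sets passed as higher in the shunt atrium, and 25.2% passed as higher and 22% as lower in the atrium of sham rats.

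**Figure D1:**
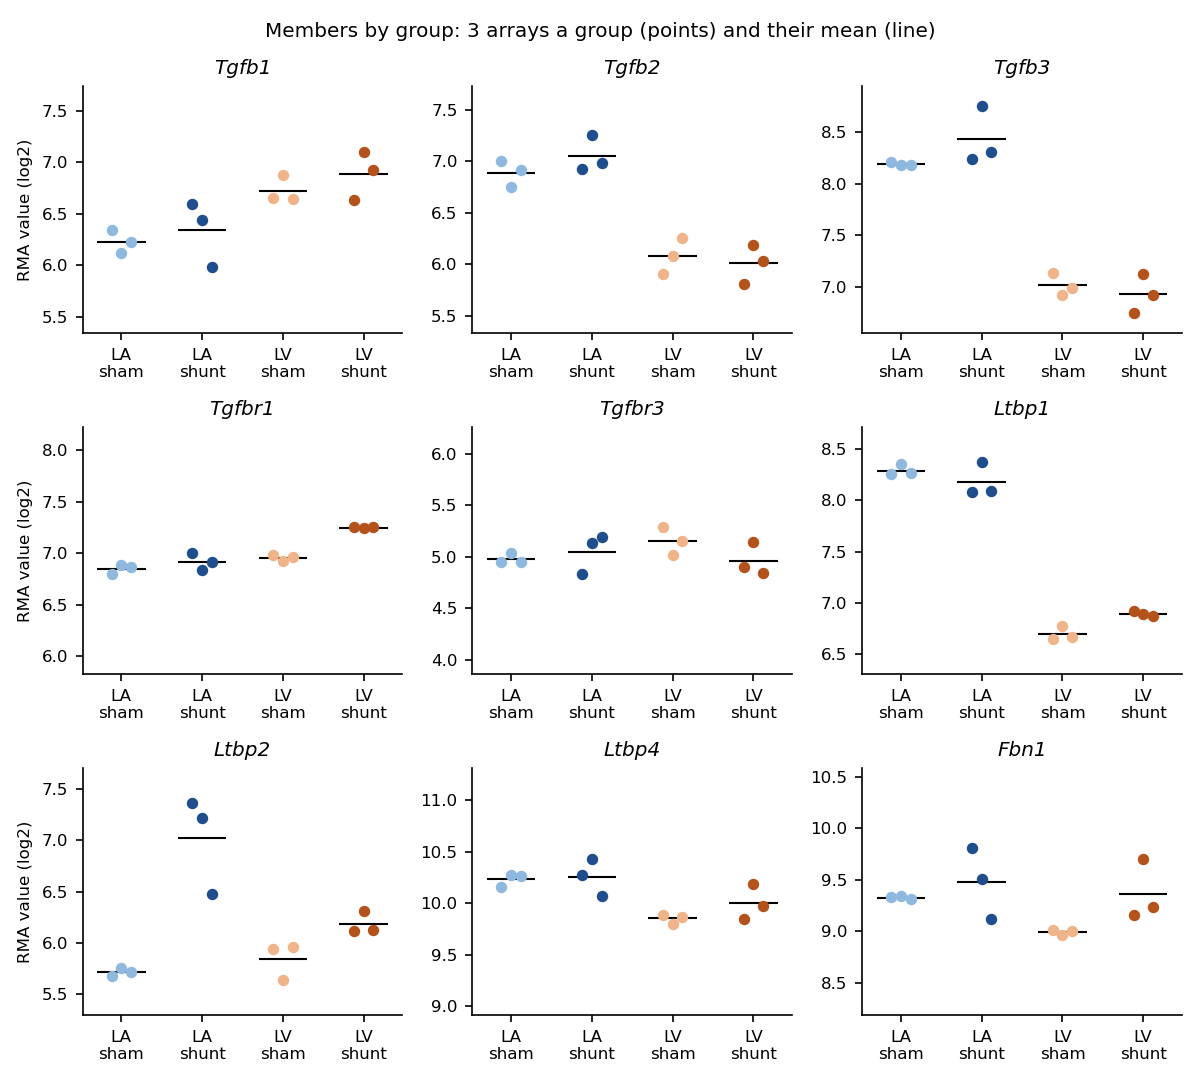
RMA values (log2, vertical axis) of the 9 measured genes in left atrium (LA) and left ventricle (LV) after sham or shunt operation; points are the 3 arrays of a group and lines their mean, and each panel has its own axis range. Ltbp2 in the shunt atrium, at 6.48 to 7.36, lies above its 9 other arrays, while Tgfb2, Tgfb3 and Ltbp1 have every atrial array above every ventricular array.

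Ltbp2 (probe set 1368448_at) had log2 values of 5.68, 5.76 and 5.72 on atrial sham arrays 1, 2 and 3, and of 7.36, 7.21 and 6.48 on atrial shunt arrays 1, 2 and 3. The groups did not overlap, and the shunt arrays differed more among themselves than the sham arrays did, with array 3 the lowest. The difference was 1.30 ± 0.18 (SE, n = 3 per group, limma adjusted p = 0.00667, 95% interval 0.90 to 1.69), or 2.46-fold. By size it was the 13th largest rise among the 18625 probe sets. The groups of 20.7% of all probe sets did not overlap in this comparison.

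In the left ventricle Ltbp2 stood at 5.94, 5.64 and 5.96 on the sham arrays and at 6.12, 6.31 and 6.13 on the shunt arrays. These groups did not overlap either, with every shunt array above every sham array, but the difference of 0.34 ± 0.18 did not pass (n = 3 per group, limma adjusted p = 0.409, 95% interval -0.06 to 0.74). In order of group means, Ltbp2 went from 5.72 in atrial sham through 5.85 in ventricular sham and 6.19 in ventricular shunt to 7.02 in atrial shunt. The sham chambers differed by -0.13 ± 0.18 (atrium minus ventricle, adjusted p = 0.593). In shunt rats the atrium was higher by 0.83 ± 0.18 (limma adjusted p = 0.00311), so of the neighbours in this order, only the ventricular and atrial shunt groups differed past the threshold.

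The atrial shunt effect on Ltbp2 exceeded the ventricular one by 0.96 ± 0.26 (95% interval 0.39 to 1.52). This interaction had an unadjusted p of 0.00304 and a limma adjusted p of 0.46, and did not pass. Across the array 0 probe sets passed for this difference by limma (0%), with 1229 (6.6%) at an unadjusted p under 0.05. Without atrial shunt array 3 the Ltbp2 difference of effects was 1.22 ± 0.14 and passed (adjusted p = 0.00993), as 1 of 19 probe sets that then did. With the other 11 arrays left out in turn it was 0.78 to 1.06 and did not pass. The atrial rise itself was 1.56 without array 3 and passed whichever of the 12 arrays was left out, at 1.12 to 1.56. It missed the threshold when only the 6 atrial arrays were fitted (1.30 ± 0.21, adjusted p = 0.0826).

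**Figure D2:**
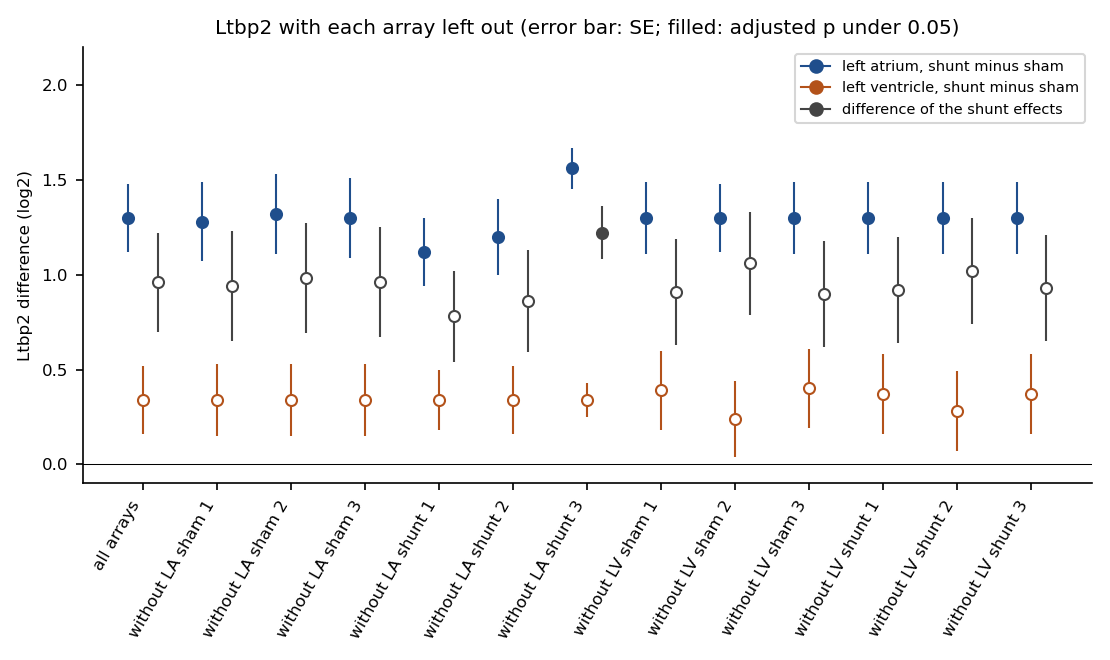
Ltbp2 differences (log2, vertical axis) in the fit of all 12 arrays and in the 12 fits that leave out 1 array (horizontal axis), for shunt minus sham in left atrium, shunt minus sham in left ventricle, and the difference of these effects; error bars are standard errors of the fit and filled points have a limma adjusted p under 0.05. The atrial value stays between 1.12 and 1.56 and filled, and the difference of effects is filled only without atrial shunt array 3.

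The genes whose representative probe sets followed Ltbp2 most closely over the 12 arrays, among 10606 genes, were Smad9, an intracellular mediator of bone morphogenetic protein (BMP) signals, at a Pearson correlation of 0.95, Fxyd5, a regulator of the sodium pump, at 0.94, and Gja4, the vascular connexin 37, at 0.94. These values describe likeness over arrays that share their groups.

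Ltbp2 is the gene of the family that rose, and its promoter is shown for that reason. The window runs from 250 bases before to 50 bases after the RefSeq start on the minus strand of chr6:110257249-110257548 in GRCr8, printed 5′ to 3′. Capitals mark the 5-letter Smad box CAGAC or its reverse complement GTCTG, the short motif that Smad proteins contact.
Ltbp2: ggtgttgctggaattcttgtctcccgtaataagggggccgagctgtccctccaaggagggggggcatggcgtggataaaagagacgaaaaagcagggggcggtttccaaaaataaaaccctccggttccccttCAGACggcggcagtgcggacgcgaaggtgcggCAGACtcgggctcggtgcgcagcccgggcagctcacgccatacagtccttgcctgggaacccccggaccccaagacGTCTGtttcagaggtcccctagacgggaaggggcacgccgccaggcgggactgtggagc
The Ltbp2 window held 3 matches, starting 117, 85 and 9 bases before the start site. Matches to CAGAC on either strand are common, since 50.1% of the 33469 promoter windows in the RefSeq table held at least 1. Of the 10 member windows 3 held a match: Ltbp2, Ltbp1 and Fbn1. Searched the same way, on both strands, the Smad palindrome GTCTAGAC (0.197% of all windows), the AP-1 motif TGACTCA (4.63%) and the MCAT motif CATTCC (14.2%) were each found in 0 of the 10. The palindrome does not contain CAGAC or GTCTG, and a match is a description of letters only.

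Among the ligands, none passed in either shunt comparison. Tgfb3 (1367859_at) read 8.21, 8.18 and 8.18 on the atrial sham arrays and 8.24, 8.76 and 8.31 on the atrial shunt arrays. Every shunt array was above every sham array, but shunt arrays 1 and 3 were so by little, and array 2 carried most of the difference of 0.25 ± 0.13 (limma adjusted p = 0.406). Without atrial shunt array 2 that difference was 0.08.

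Tgfb2 (1388011_a_at), the ligand most tied to heart valve and septum formation, read 7.0, 6.75 and 6.91 in atrial sham and 6.92, 7.25 and 6.98 in atrial shunt arrays. These overlapped, with a difference of 0.16 ± 0.12 (limma adjusted p = 0.594). Tgfb1 (1370082_at), the most widely expressed ligand, read 6.34, 6.12 and 6.22 in atrial sham and 6.59, 6.44 and 5.98 in atrial shunt arrays. Shunt array 3 was the lowest of all 6 and arrays 1 and 2 the highest, so the difference of 0.11 ± 0.15 (limma adjusted p = 0.792) was smaller than the spread; without array 3 it was 0.29 and did not pass.

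In the ventricle the ligands differed by 0.16 ± 0.15 for Tgfb1, -0.07 ± 0.12 for Tgfb2 and -0.08 ± 0.13 for Tgfb3, with sham and shunt arrays overlapping in all 3. Their 95% intervals ran from -0.18 to 0.50, -0.34 to 0.20 and -0.37 to 0.20, so these data bound the ventricular changes of the ligands without showing that there were none.

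Of the receptors, Tgfbr1, the type I receptor kinase that phosphorylates Smad2 and Smad3, came nearest to a call in the ventricle. Its probe set 1376636_at read 6.98, 6.92 and 6.96 on the sham arrays and 7.25, 7.24 and 7.25 on the shunt arrays. All 3 shunt arrays lay close together and above the sham arrays. The difference was 0.29 ± 0.06 (n = 3 per group, limma adjusted p = 0.0794, 95% interval 0.17 to 0.42), ranked 81 by size of t among the 18625 probe sets, and did not pass. It passed with a stricter filter at the 60th percentile of level (adjusted p = 0.0431). The residual spread of this probe set, 0.0462, was smaller than that of all but 3.2% of probe sets.

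The other Tgfbr1 probe set (1369504_at) did not share this pattern. It read 4.63, 4.56 and 4.48 in ventricular sham and 4.35, 4.62 and 4.75 in ventricular shunt arrays, which overlapped, with a difference of 0.02 ± 0.09 (limma adjusted p = 0.948). Averaged over both probe sets the Tgfbr1 difference was 0.16. In the atrium Tgfbr1 differed by 0.07 ± 0.06 and by -0.07 ± 0.09 for its 2 probe sets, and neither passed.

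Tgfbr3, or betaglycan, a co-receptor that presents TGF-beta to the signalling receptors, had probe sets 1369219_at and 1387484_at whose differences had opposite signs, at 0.07 ± 0.11 and -0.13 ± 0.13 in the atrium and at -0.19 ± 0.11 and 0.07 ± 0.13 in the ventricle. None of these 4 differences passed, and the sham and shunt arrays overlapped in each.

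The other latency proteins and fibrillin-1 did not pass in either chamber. Ltbp1 (1367912_at), the main carrier of latent TGF-beta in many cells, read 6.65, 6.78 and 6.67 on ventricular sham and 6.92, 6.89 and 6.87 on ventricular shunt arrays. The shunt arrays were all higher, by 0.19 ± 0.08 (limma adjusted p = 0.309). In the atrium Ltbp1 differed by -0.11 ± 0.08 (adjusted p = 0.57), with shunt arrays at 8.08, 8.37 and 8.09 on either side of the sham arrays at 8.25, 8.35 and 8.26.

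Ltbp4 (1371500_at), which also guides elastic fibre assembly, differed by 0.02 ± 0.10 in the atrium and 0.15 ± 0.10 in the ventricle, with overlapping arrays in both. Fbn1 (1387351_at), the backbone of the microfibril, read 9.01, 8.96 and 9.0 on ventricular sham and 9.16, 9.70 and 9.23 on ventricular shunt arrays. All shunt arrays were higher and array 2 the highest; the difference was 0.37 ± 0.16 (limma adjusted p = 0.314, 95% interval 0.02 to 0.73), and 0.21 without ventricular shunt array 2. The other Fbn1 probe set (1368829_at) read 8.40, 8.38 and 8.49 in ventricular sham and 8.61, 8.82 and 8.56 in ventricular shunt arrays, again without overlap, at 0.24 ± 0.09 (adjusted p = 0.23).

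In the atrium the Fbn1 probe sets differed by 0.16 ± 0.16 and 0.17 ± 0.09 (adjusted p = 0.709 and 0.383 by limma). For 1387351_at the atrial sham arrays read 9.33, 9.34 and 9.31 and the shunt arrays 9.81, 9.51 and 9.12, so 2 shunt arrays lay above and 1 below the sham arrays. For 1368829_at the atrial sham arrays read 8.92, 8.90 and 8.82 and the shunt arrays 9.20, 8.99 and 8.95, without overlap.

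**Figure D3:**
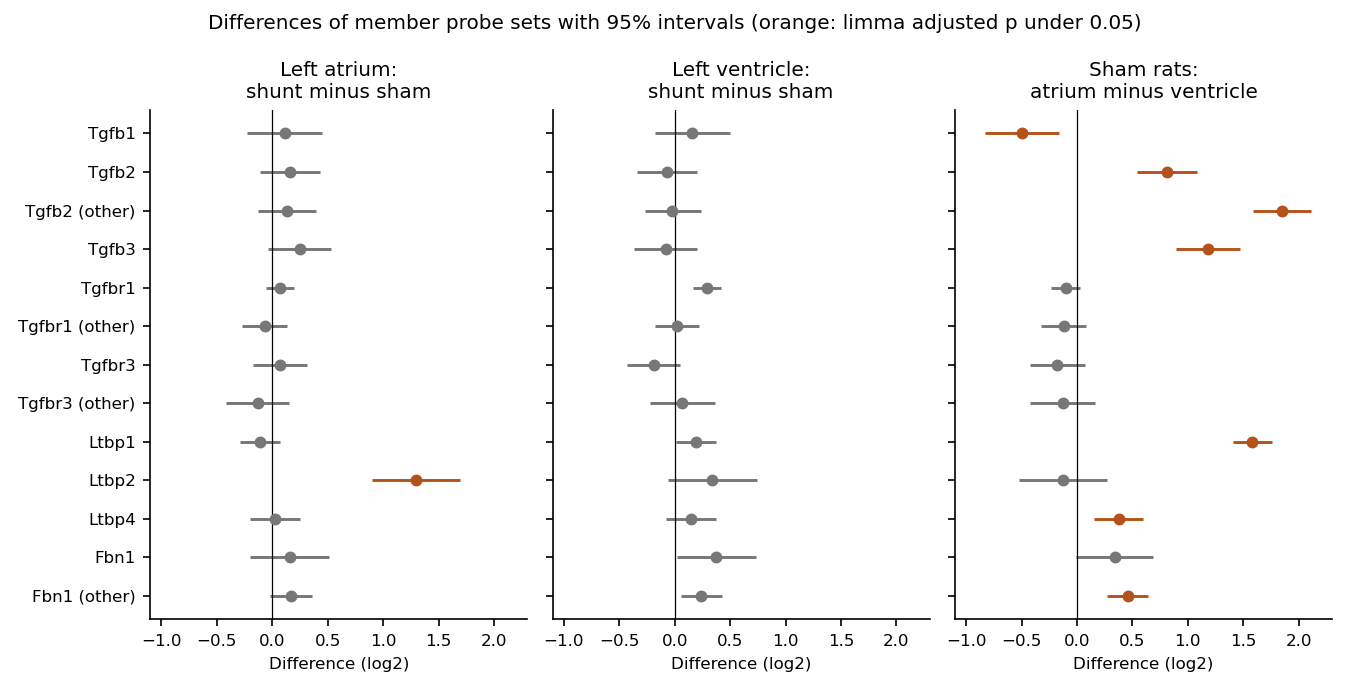
Differences (log2, horizontal axis) of the 13 probe sets with 95% intervals of the fit, for shunt minus sham in each chamber and for atrium minus ventricle in sham rats; orange marks a limma adjusted p under 0.05 and "other" the second probe set of a gene. In the shunt comparisons only Ltbp2 in the atrium is orange, while in sham rats the largest atrial excess is that of the other Tgfb2 probe set, at 1.85.

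Of the 9 genes, 8 had an atrial difference above 0 and 6 a ventricular one. The median difference was 0.11 in the atrium and 0.16 in the ventricle, against -0.01 and 0 over all genes. In the ventricle 4 of the 9, Tgfbr1, Ltbp1, Ltbp2 and Fbn1, had shunt arrays wholly above the sham arrays, where 10.1% of all probe sets did so in that direction (20.8% in either). In the atrium 2 of the 9 did so, Ltbp2 and Tgfb3, where 8.33% of all probe sets did.

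The shunt arrays of a chamber did not move alike. Relative to the atrial sham mean, the 9 genes stood on average at 0.27, 0.36 and 0.05 on shunt arrays 1, 2 and 3, and Tgfb1, Fbn1, Ltbp4 and Ltbp2 were each lowest on array 3, at -0.25, -0.20, -0.17 and 0.76. Relative to the ventricular sham mean, they stood on average at 0.01, 0.29 and 0.09, and Tgfb1, Fbn1, Ltbp4 and Ltbp2 were each highest on array 2, at 0.37, 0.71, 0.33 and 0.47. Tgfbr1 and Ltbp1 in the ventricle did not follow this order, with all shunt arrays within 0.29 to 0.30 and 0.17 to 0.22 above the sham mean.

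Other measures moved with these arrays. The hexokinase difference was 0.8, 0.94 and 1.44 on atrial shunt arrays 1, 2 and 3 and 1.23, 0.82 and 1.18 on the ventricular ones, so that it was highest where the 4 genes were lowest and lowest in the ventricle where they were highest. The mean of 12 fibroblast markers stood at 0.09, 0.13 and -0.17 on the atrial shunt arrays and at -0.09, 0.18 and -0.02 on the ventricular ones. Of these 12, Thy1 rose in the atrium by 0.46 ± 0.09 (limma adjusted p = 0.0362), from a sham mean of 4.34, and 0 passed in the ventricle. In the atrium 6 of the 12 had a difference above 0 and 6 below. The mean of 9 macrophage markers stood at 0.33, 0.39 and -0.24 on the atrial shunt arrays and at 0.15, 0.39 and 0.22 on the ventricular ones. Of these 9 markers 0 passed in either chamber, where 1.3% of all probe sets did in the atrium and 0.107% in the ventricle. With the hexokinase difference as a covariate in the fit, the atrial Ltbp2 rise was 1.30 ± 0.09 (limma adjusted p = 6.52e-05). In the ventricle 3 genes then passed, Ltbp2 at 0.52 ± 0.09 (adjusted p = 0.0312), Fbn1 at 0.54 ± 0.07 (adjusted p = 0.0138) and Tgfbr1 at 0.30 ± 0.06 (adjusted p = 0.0466), among 215 probe sets that did. The mean of 4 atrial myocyte markers was -0.46, 0.87 and 0.04 relative to the ventricular sham mean, so shunt array 2, where the 4 genes were highest, also had the highest atrial myocyte markers. On the atrial shunt arrays the mean of 4 ventricular myocyte markers stood at 0.76, 1.02 and 0.57. Of those 4, Myh7 rose by 1.63 ± 0.18 and Myl3 by 1.13 ± 0.21 (limma adjusted p = 0.00228 and 0.0256). Of all probe sets 0.478% passed as higher in the atrium. Myl2 at 0.71 ± 0.19 and Irx4, which ran the other way at -0.32 ± 0.10, did not pass (limma adjusted p = 0.0993 and 0.155). The mean of 3 nerve and Schwann cell markers was above the sham mean on every shunt array, by 0.44, 0.63 and 0.44 in the atrium and 0.28, 0.32 and 0.30 in the ventricle. Of these 3, Prph, a neuronal intermediate filament, rose in the atrium by 0.90 ± 0.12 (limma adjusted p = 0.00546) and Cnp, a myelin enzyme, by 0.53 ± 0.11 (adjusted p = 0.0436), and 0 passed in the ventricle. The mean of 6 mesothelial markers was 0.01, -0.02 and -0.60 on atrial shunt arrays 1, 2 and 3, lowest on the array where the 4 genes were lowest. Of these 6, Krt19 passed as lower in the atrium at -0.63 ± 0.13 (limma adjusted p = 0.0442), and 0 passed in the ventricle. In the atrium 5 of the 6 had a difference below 0 and 1 above. The part of cell make-up in these values was not tested.

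**Figure D4:**
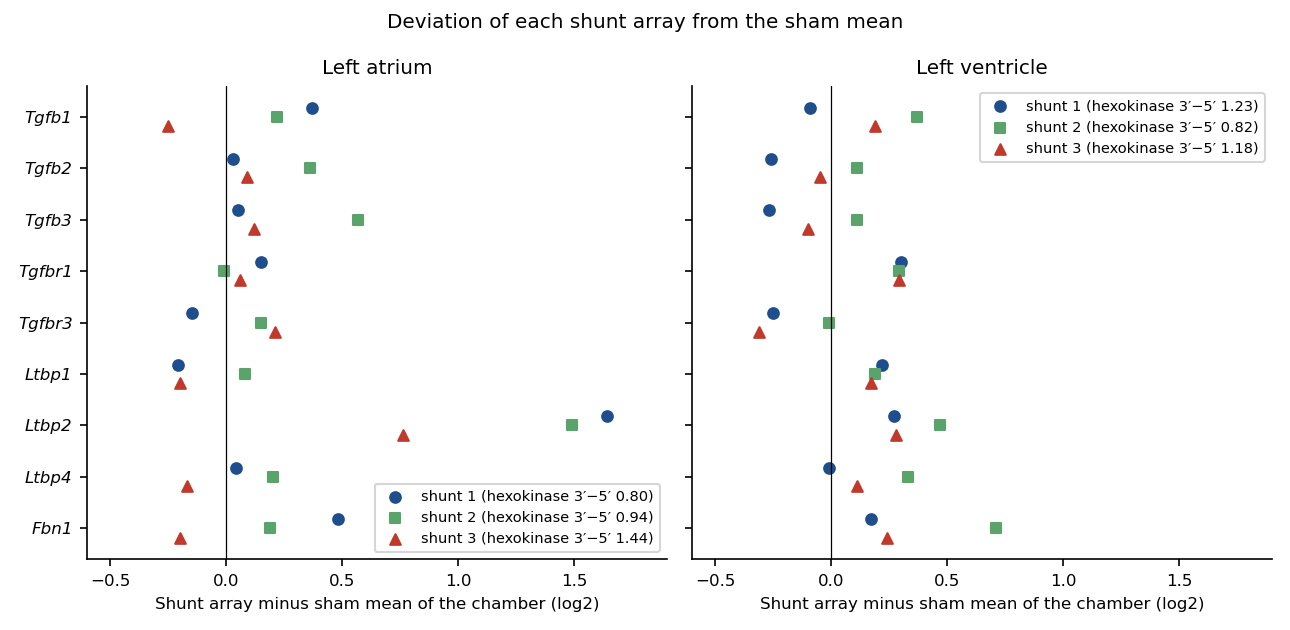
Each shunt array minus the sham mean of its chamber (log2, horizontal axis) for the 9 genes; symbols are the 3 shunt arrays, and the key gives the hexokinase 3′ minus 5′ difference of each. Atrial array 3, at a hexokinase difference of 1.44, is lowest for Tgfb1, Ltbp2, Ltbp4 and Fbn1, and ventricular array 2, at 0.82, is highest for them.

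Markers of other cell types were read as summed levels. The summed log2 level of 6 of 7 mesothelial markers was 9.37 to 9.66 in atrial sham, 8.84 to 9.54 in atrial shunt, 6.94 to 7.0 in ventricular sham and 7.23 to 7.35 in ventricular shunt arrays. For 12 of 12 fibroblast markers it was 14.19 to 14.23, 14.06 to 14.36, 13.66 to 13.73 and 13.63 to 13.89 in the same order. For 10 of 10 macrophage markers it was 10.34 to 10.44, 10.32 to 10.96, 10.68 to 10.72 and 10.95 to 11.09, and for 4 of 5 platelet markers 7.74 to 7.77, 7.65 to 7.90, 7.82 to 8.07 and 7.92 to 7.97. The summed fibroblast and mesothelial levels were thus higher in atrial than in ventricular sham arrays without overlap, in the direction of Tgfb2, Tgfb3, Ltbp1 and Ltbp4. So was that of 5 of 7 nerve and Schwann cell markers, at 7.29 to 7.42 against 7.06 to 7.19. The macrophage and platelet levels ran the other way without overlap, in the direction of Tgfb1. So did 8 of 9 endothelial markers, at 11.22 to 11.27 in atrial against 11.38 to 11.42 in ventricular sham arrays. The level of 6 of 6 smooth muscle markers, at 10.01 to 10.11 against 10.26 to 10.29, did the same. Among all probe sets, 25.2% were called higher and 22% lower in the atrium of sham rats. By gene, 9 of the 12 fibroblast markers were called higher in the atrium and 0 lower, with Thy1 at -0.11 ± 0.09 and not passing (limma adjusted p = 0.338). Of 8 endothelial markers 1 was called higher and 5 lower, and of 5 smooth muscle markers tested 0 higher and 2 lower. Of 9 macrophage markers tested 1 was called higher, Cd163 at 0.60 ± 0.14, and 1 lower, Lyz2 at -0.62 ± 0.15 (limma adjusted p = 0.0037 and 0.00414). Their mean log2 level, unlike the summed one, overlapped, at 6.15 to 6.25 in atrial and 6.2 to 6.24 in ventricular sham arrays. Of 3 platelet markers tested 0 were called higher and 1 lower. Of the 6 mesothelial markers 5 were called higher and 1 lower, and the lower one was Wt1, a transcription factor of the epicardium, at -0.60 ± 0.10 (adjusted p = 0.000359). The part of these cell types in the chamber differences was not tested.

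Between the chambers of sham rats, the ligands did not run the same way. Tgfb3 stood at 8.21, 8.18 and 8.18 in atrial and 7.13, 6.92 and 6.99 in ventricular sham arrays, higher in the atrium by 1.18 ± 0.13 (n = 3 per group, limma adjusted p = 1.91e-05), or 2.27-fold. Tgfb2 was higher in the atrium by 0.81 ± 0.12 (adjusted p = 0.000244). Its other probe set, 1387172_a_at, read 6.72, 6.58 and 6.76 in atrial and 4.92, 4.71 and 4.88 in ventricular sham arrays, a difference of 1.85 ± 0.12 (limma adjusted p = 1.99e-07). Both Tgfb2 probe sets agree in direction and not in size, at 1.75-fold and 3.61-fold; the suffix of their names marks probes that match several transcripts of the gene.

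Tgfb1 ran the other way, at 6.65, 6.88 and 6.64 in ventricular sham arrays against 6.34, 6.12 and 6.22 in atrial ones, lower in the atrium at -0.50 ± 0.15 (limma adjusted p = 0.0205). Its call ended without atrial sham array 2 or 3 or ventricular sham array 2 (-0.44, -0.49 and -0.42, adjusted p = 0.0704, 0.0529 and 0.0759).

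Ltbp1 had the clearest chamber difference of the family by its test. It read 8.25, 8.35 and 8.26 in atrial against 6.65, 6.78 and 6.67 in ventricular sham arrays, higher by 1.58 ± 0.08 (limma adjusted p = 3.51e-08), which ranked 144 by size of t. Ltbp4 was higher in the atrium by 0.38 ± 0.10 (adjusted p = 0.00979), at 10.16, 10.28 and 10.27 against 9.89, 9.80 and 9.87. Ltbp3, the remaining family member, is in the microfibril list and not among the 10, and was singled out after its values were seen; it was higher by 0.87 ± 0.11 (adjusted p = 6.58e-05). In all, 7 of the 9 genes had atrial and ventricular sham arrays that did not overlap, as did 61.2% of all probe sets.

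Fbn1 was 0.34 ± 0.16 higher in the atrium without passing (limma adjusted p = 0.104), while its other probe set passed at 0.46 ± 0.09 (adjusted p = 0.00106). Fbn1 passed with its probe sets averaged (0.40, adjusted p = 0.0155), with only the sham groups fitted (0.34, 0.00143), with the hexokinase difference as a covariate (0.48, 0.000211) and without atrial shunt array 3 (0.34, 0.0438). The receptors did not pass in sham rats, at -0.10 ± 0.06 for Tgfbr1 and -0.18 ± 0.11 for Tgfbr3. Tgfbr1 was lower in the atrium at -0.20 and -0.16 and passed after a further quantile normalization or cyclic loess (adjusted p = 0.0166 and 0.0437).

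After the shunt the atrial excess of Tgfb3 was 1.51 ± 0.13, that of Tgfb2 1.04 ± 0.12 and that of Ltbp1 1.28 ± 0.08, with limma adjusted p of 2.72e-06, 3.86e-05 and 2.08e-07. Ltbp2 joined them at 0.83, while Tgfb1 stayed lower in the atrium at -0.54 ± 0.15 (adjusted p = 0.0145); that call ended without ventricular shunt array 2 (-0.43, adjusted p = 0.0561) and with only the shunt groups fitted (0.0542). Tgfbr1 was lower in the atrium at -0.33 ± 0.06 (limma adjusted p = 0.000782). Its other probe set, 1369504_at, did not pass at -0.21 ± 0.09 (adjusted p = 0.089), and its atrial and ventricular shunt arrays overlapped. Ltbp4 did not pass at 0.26 ± 0.10 (adjusted p = 0.0634), though it did at 0.35 without atrial shunt array 3 or ventricular shunt array 2 (adjusted p = 0.0137 and 0.0172). Ltbp4 also passed at 0.25 to 0.26 under 3 of 10 other settings: the trended and robust prior (adjusted p = 0.0394), the replicate block within operation (0.0355) and the hexokinase covariate (0.0167). In all 6 of the 9 genes passed in shunt rats, where 41.9% of all probe sets did, 22.4% as higher and 19.4% as lower in the atrium. Fbn1 did not pass by its representative probe set (0.12 ± 0.16, adjusted p = 0.585), while its other probe set was higher in the atrium by 0.38 ± 0.09 and passed (adjusted p = 0.0038). The arrays of 6 of the 9 did not overlap between the shunt chambers, as for 49.3% of all probe sets. None of the 9 changes between sham and shunt rats passed as a difference of effects: it was 0.33 ± 0.18 for Tgfb3, 0.23 ± 0.18 for Tgfb2, -0.30 ± 0.11 for Ltbp1 and -0.23 ± 0.08 for Tgfbr1, with unadjusted p of 0.1, 0.221, 0.0225 and 0.0187.

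Tgfb2, Tgfb3 and Ltbp1 shared the split by chamber, with every atrial array above every ventricular array, and their promoter windows are shown for that reason. Within a chamber their order differed: the shunt mean was above the sham mean in the atrium and below it in the ventricle for Tgfb2 and Tgfb3, and the reverse for Ltbp1. They lie in GRCr8 on the minus strand, Tgfb2 at chr13:100792636-100792935, Tgfb3 at chr6:111456897-111457196 and Ltbp1 at chr6:26177252-26177551, and are printed 5′ to 3′ as RefSeq gives them, with matches to CAGAC or GTCTG in capitals.
Tgfb2: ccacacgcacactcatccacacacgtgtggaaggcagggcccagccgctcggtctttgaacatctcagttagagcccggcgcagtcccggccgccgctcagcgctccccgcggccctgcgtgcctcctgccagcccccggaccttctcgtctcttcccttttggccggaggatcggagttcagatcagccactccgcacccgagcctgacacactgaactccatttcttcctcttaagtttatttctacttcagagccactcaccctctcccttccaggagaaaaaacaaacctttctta
Tgfb3: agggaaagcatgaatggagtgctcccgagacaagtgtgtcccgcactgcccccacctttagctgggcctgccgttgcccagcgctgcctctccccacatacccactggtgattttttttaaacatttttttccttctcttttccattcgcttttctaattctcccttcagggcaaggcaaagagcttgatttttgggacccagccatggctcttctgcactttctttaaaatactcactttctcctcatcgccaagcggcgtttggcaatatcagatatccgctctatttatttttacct
Ltbp1: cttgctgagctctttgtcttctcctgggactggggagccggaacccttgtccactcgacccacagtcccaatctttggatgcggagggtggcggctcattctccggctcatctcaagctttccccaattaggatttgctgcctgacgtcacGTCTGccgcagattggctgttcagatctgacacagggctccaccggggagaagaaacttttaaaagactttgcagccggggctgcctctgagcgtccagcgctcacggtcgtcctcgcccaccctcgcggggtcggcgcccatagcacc
The Ltbp1 window held 1 match, 99 bases before the start site, and those of Tgfb2 and Tgfb3 held 0. The windows had 59%, 47.7% and 60% of G and C for Tgfb2, Tgfb3 and Ltbp1, against a median of 51.7% over all windows and 63.3% for Ltbp2.

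As these 3 split by chamber, the genes most like them over the 12 arrays share that split by the way they were chosen. For Tgfb3 they were Dpt, which encodes the fibroblast matrix protein dermatopontin, Sec61a1, a subunit of the translocation channel of the endoplasmic reticulum, and Igfbp6, a carrier of insulin-like growth factors, each at 0.99. For Ltbp1 they were Mamdc2, Arf3 and Nudt11, each at 0.99, and for Tgfb2 Arl1 at 0.99 and Manf and Mxra8 at 0.98. For Fbn1 they were Marcks at 0.96, Vim, the intermediate filament vimentin, at 0.95 and Rerg at 0.95, and for Tgfbr1 Abcg1, a sterol transporter, at 0.96.

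The rest of the pathway was described from 5 lists. Of 30 TGF-beta responsive genes 22 were measured, and in the atrium 2 rose, 0 fell and 20 did not pass. Of all probe sets 1.3% passed there, 0.478% as higher. The 2 that rose are given here. They were Ccn2, a matricellular growth factor, by 0.98 ± 0.20 (limma adjusted p = 0.0436) and Cthrc1, a secreted protein linked to collagen, by 0.37 ± 0.08 (adjusted p = 0.0498). Ccn2 passed in 5 and Cthrc1 in 1 of the 12 fits that left out 1 array. Tgfbi, singled out after its values were seen, ran the other way at -0.39 ± 0.09 and just missed the threshold (limma adjusted p = 0.0514). Of the 22 genes 14 had an atrial difference above 0 and 8 below. The list's median was 0.14, against -0.01 over all genes, and it stood on average at 0.31, 0.16 and -0.06 on atrial shunt arrays 1, 2 and 3. In the ventricle 0 of the 22 passed, where 0.107% of all probe sets did, with a median of 0.06, and Ccn2 differed by 0.08. The atrial minus ventricular difference of the Ccn2 effects, 0.90 ± 0.29, did not pass (limma adjusted p = 0.544).

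In the other 4 lists 0 genes passed in either shunt comparison. Of all probe sets 1.3% passed in the atrium and 0.107% in the ventricle, so these counts are close to the share of the array. Among 16 of 17 receptor partners and Smads, the atrial median was 0.10 and the smallest p belonged to Smad7, the inhibitory Smad induced by the pathway, at 0.54 ± 0.17 (adjusted p = 0.163), and Eng, the endothelial co-receptor endoglin, at 0.36 ± 0.12 (adjusted p = 0.187). Among 16 of 29 BMP and activin genes, the atrial median was 0.05; the ligand Bmp4 was at 0.77 ± 0.17 (adjusted p = 0.0513) and Inha, an inhibin subunit, at -0.56 ± 0.14 (adjusted p = 0.086).

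Among 18 of 24 genes that process or free latent TGF-beta, the atrial median was 0.01. Bgn, the TGF-beta binding proteoglycan biglycan, was at 0.62 ± 0.14 (adjusted p = 0.0558) and Plg, plasminogen, at -0.44 ± 0.12 (adjusted p = 0.109). Among 21 of 22 microfibril and elastic fibre genes the median was 0.12 in the atrium and 0.14 in the ventricle. In the atrium Mfap4, a microfibril-associated protein, was at 0.37 ± 0.09 (adjusted p = 0.0714) and Eln, elastin, at 0.56 ± 0.15 (adjusted p = 0.109). In the ventricle Thsd4, a fibrillin-binding protein, was at -0.44 ± 0.10 (adjusted p = 0.0949) and Adamtsl2, another, at 0.59 ± 0.16 (adjusted p = 0.146). With the hexokinase difference as a covariate, which raised the ventricular calls from 20 to 215 of the 18625 probe sets, 6 of the microfibril genes, 2 of the BMP and activin genes, 2 of the responsive genes, 1 of the latency-processing genes and 0 of the receptor partners and Smads passed in the ventricle. In the atrium, where that fit called 758, the counts were 4, 3, 7, 1 and 3 in the same order. Without atrial shunt array 3, 3 of the microfibril genes, 3 of the BMP and activin genes, 2 of the receptor partners and Smads, 2 of the latency-processing genes and 5 of the responsive genes passed in the atrium, in a fit that called 469 of the 18625 probe sets there against 243 with all arrays.

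**Figure D5:**
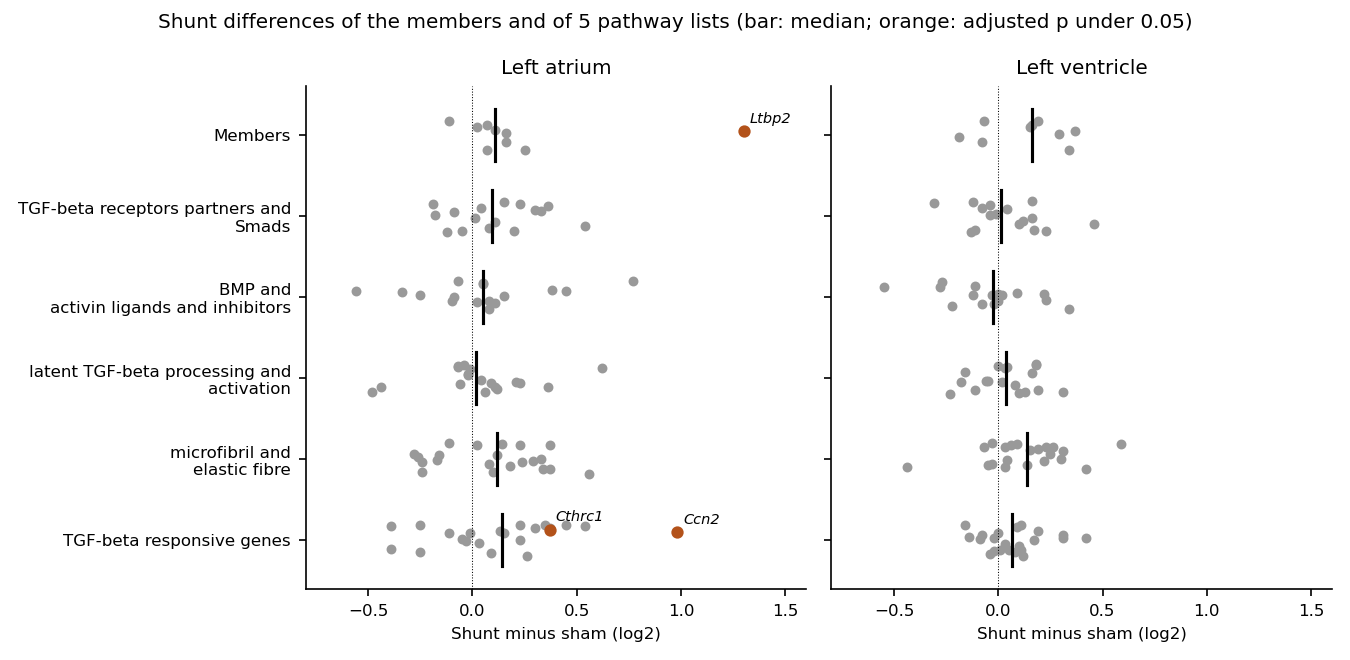
Shunt minus sham differences (log2, horizontal axis) in each chamber for the 9 genes and the measured genes of the 5 pathway lists; points are genes, bars the median of a list, and orange points, named, have a limma adjusted p under 0.05. Ltbp2, Ccn2 and Cthrc1 in the atrium are the only orange points, and 0 are orange in the ventricle.

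Between the chambers of sham rats genes of all 5 lists passed in both directions. Of all probe sets 47.2% passed in either direction, 25.2% as higher and 22% as lower in the atrium, and the counts of all 5 lists are to be read against these shares. Of the 21 microfibril genes 13 were higher in the atrium and 1 lower, with a median of 0.45 against 0.02 over all genes. Efemp1, the fibulin-like matrix protein, was higher by 2.12 ± 0.14, Adamtsl2 by 1.95 ± 0.16 and Fn1, fibronectin, by 1.80 ± 0.10, while Thsd4 was at -1.73 ± 0.10 (limma adjusted p of 2.18e-07, 1.72e-06, 4.39e-08 and 1.05e-07). Of the 22 responsive genes 10 were higher and 2 lower, among them Timp1, a protease inhibitor, at 1.18 ± 0.15 and Id1, a target of BMP signals, at -0.77 ± 0.12. Of the 18 latency-processing genes 8 were higher and 2 lower, with Fmod, the proteoglycan fibromodulin, at 1.92 ± 0.24 and the proprotein convertase Pcsk6 at -1.24 ± 0.09. Of the 16 BMP and activin genes 5 were higher and 4 lower, with Bmp5 at 1.71 ± 0.20 and Inha at -1.72 ± 0.14, and of the 16 receptor partners and Smads 4 were higher and 2 lower, with Smad7 at 0.77 ± 0.17.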

How the data were processed

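Total RNA, 10 µg per array, was labelled as biotin-marked cRNA and hybridised to one-colour Affymetrix arrays, per the labels' protocols. The deposited values are RMA values on a log2 scale, per the submitters' processing notes and the range of the values; the RMA version and which arrays were normalized together are not given in the sources used here. No depth exists for arrays, and their number limits the precision. Of 31099 probe sets 57 were controls. Symbols came from the platform annotation, updated by Entrez identifier: 20826 probe sets had 1 symbol (68 kept an older one), 436 several and 9780 none. Promoter windows came from RefSeq (GRCr8).

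Each probe set at or above the 40th percentile of mean level was fitted with limma 3.58.1 (R 4.3.3; lmFit, eBayes), 1 mean per group over all 12 arrays, no block, 8 residual and 3.68 prior degrees of freedom. P-values are two-sided and adjusted over 18625 probe sets. The fit was tested on simulated data. The members and the lists were chosen with earlier results of these data known. From the lists, the genes past the threshold in a shunt comparison, otherwise the 2 of smallest p, and up to 3 per direction between sham chambers could be named, and for likeness 3 genes per member. Whether equal replicate numbers mark the same animals is not stated, so they were not used as a pairing. Alternatives changed the filter, the normalization, the variance prior, the groups fitted, the replicate block, the averaging of probe sets, the hexokinase covariate or left out 1 array.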

Additional observations from a re-analysis of the deposited data

How the results depend on the processing

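Of 45 differences (9 genes in 5 comparisons), 922 of 958 recomputed values did not change sign and kept their side of the threshold, 6 lost a call, 16 gained one and 14 changed sign, none of them a called value. A value that rounded to 0 was counted as not changing sign. The count of genes called in the left atrium after the shunt, 1, became 0 when only the groups compared were fitted. In the ventricle the count of 0 became 1 with the filter at the 60th percentile and 3 with the hexokinase covariate. For the difference of the effects, 0 became 1 without atrial shunt array 3, and the counts with 1 array left out ranged from 0 to 1. Left out in turn, the counts ranged from 1 to 1 in the atrium, 0 to 0 in the ventricle, 4 to 6 between sham chambers and 6 to 7 between shunt chambers. With a gene's probe sets averaged, Tgfbr3 turned to -0.03 in the atrium and to -0.12 between shunt chambers, and with the hexokinase covariate Ltbp2 turned to 0.03 between sham chambers. With 1 array left out, values that crossed 0 ranged from -0.02 to 0.29 for Tgfb1, -0.06 to 0.12 for Ltbp4 and -0.01 to 0.33 for Fbn1 in the atrium, from -0.16 to 0.03 for Tgfb2, -0.18 to 0.01 for Tgfb3 and -0.13 to 0.24 for Ccn2 in the ventricle, from -0.17 to 0.13 for the difference of effects of Tgfb1, and from -0.04 to 0.30 for Fbn1 between shunt chambers. The replicate block over all groups left the counts of genes called at 1, 0, 0, 5 and 6, and 8 of 12 arrays correlated best with arrays of their own number. Deviations of equally numbered arrays correlated at -0.24 to 0.44; between the sham chambers they did so at 0.07 to 0.26, and unequally numbered ones at -0.23 to 0.03. Not every pair was above 0.1, so a pairing was neither assumed nor shown to be absent. All probe sets called ranged from 43 to 758 in the atrium and from 0 to 215 in the ventricle over these alternatives, against 243 and 20. In the ventricle 55% of the calls were higher, and 42.1% after quantile normalization. The alternatives on the lists and on Ccn2 and Cthrc1 were added after the data were seen. Except where named, the cause of a change was not tested.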
